A study of Mus musculus with 9 samples.

Results

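The genes described here are 10 members of the ATF4 branch of the integrated stress response, Atf4, Ddit3, Trib3, Chac1, Asns, Nupr1, Pck2, Psat1, Phgdh and Atf5. They were taken by symbol from a table of FPKM values, fragment counts scaled to gene length and to the size of the library, which lists 54307 genes, and all 10 were found and passed the filter on low values. The symbol Ddit3 stands on 2 rows, of which the one annotated as an overlapping locus was at 0.0 in all 9 libraries, so the other row is used. The libraries were made from mRNA of C2C12 cells, a mouse myoblast line, after 48 h of culture. The HL group received 25 mmol/L glucose and 200 nmol/L liraglutide, an analogue of glucagon-like peptide-1. The H group received 25 mmol/L glucose alone, and the NC group was the control group, whose glucose level the labels do not give. Each group has 3 libraries. No group received liraglutide without high glucose, and no osmotic control was sequenced in these libraries. The study's methods describe independent biological repeats in general, while the labels do not name the culture of any library, so part of the spread between libraries may be technical.

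The integrated stress response starts with kinases that phosphorylate the translation factor eIF2α. General protein synthesis then falls, while the mRNA of the transcription factor ATF4 is translated more, so that the amount of Atf4 mRNA and the activity of the ATF4 protein are separate quantities. ATF4 is known to turn on genes for amino acid synthesis and transport and, together with CHOP, the product of Ddit3, genes of the stress and cell death programme, and only mRNA was measured here.

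Where ATF4 and C/EBP proteins bind together, the DNA usually holds a composite element, and the motif TGATGNAA, TTNCATCA when read on the other strand, was searched on both strands from 250 bases before to 50 bases after each start in RefSeq promoter sequences of GRCm38.p6. All 10 genes had a window, 12 windows in all, and 5 genes held a match, against 4.51% of all 27025 genes with a window (3.97% of 32851 windows). No other motif was searched. All 5 matches are shown. By the limits given below, Nupr1 and Chac1 were called higher in H against NC, Pck2 lower, and Trib3 and Asns were not called. Each line is written in the direction of the gene, with up to 40 bases on either side of a match that lies upstream, ending at the gene start, and a run of 30 bases for Trib3, whose match lies after the start. The capitals mark the 8 bases that match.
Nupr1, chr7:126625533-126625620, minus strand: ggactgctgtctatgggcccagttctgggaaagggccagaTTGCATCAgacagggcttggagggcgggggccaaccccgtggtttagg
Chac1, chr2:119351009-119351096, plus strand: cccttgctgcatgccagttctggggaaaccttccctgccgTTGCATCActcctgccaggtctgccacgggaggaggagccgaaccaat
Pck2, chr14:55540123-55540210, plus strand: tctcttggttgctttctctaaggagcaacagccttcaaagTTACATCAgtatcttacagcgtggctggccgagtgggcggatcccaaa
Asns, chr6:7693210-7693272, minus strand: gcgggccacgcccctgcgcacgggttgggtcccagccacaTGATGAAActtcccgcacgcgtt
Trib3, chr2:152344028-152344057, minus strand: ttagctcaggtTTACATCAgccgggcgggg

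The match in Chac1 starts 193 bases upstream of the gene start, that in Nupr1 110, that in Pck2 103 and that in Asns 23, and the match in Trib3 starts 15 bases after the start. Nupr1 and Chac1 hold the same 8 letters, as do Pck2 and Trib3. Only the match in Asns lies on the strand of the gene. The windows of Atf4, Ddit3, Psat1, Phgdh and Atf5 hold no match. A match describes the letters and does not show that a protein binds there.

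**Figure D1:**
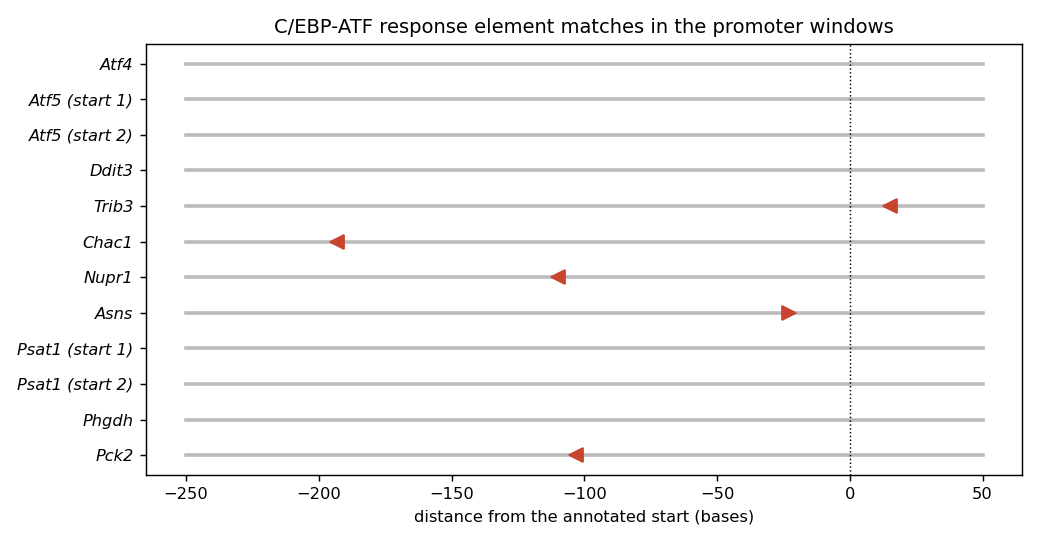
Position of each match to the motif in the promoter windows of the 10 genes, in bases from the gene start, with arrows that point right for the strand of the gene and left for the other strand. The 4 matches upstream of a start lie 23 to 193 bases away, and Trib3 has its match 15 bases after the start.

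The libraries held an estimated 17200000 to 23200000 mapped fragments, read from the steps between low FPKM values. Of 8 myoblast markers, 7 reached 1 FPKM in every HL library and 6 in every H and NC library, with a summed level of 662.5 to 683.7 FPKM in HL, 311.8 to 442.7 FPKM in H and 413.9 to 428.0 FPKM in NC libraries. The 6 myotube markers summed to 19.7 to 23.7 FPKM in HL, 7.68 to 9.3 FPKM in H and 9.74 to 10.1 FPKM in NC libraries, and the 4 endothelial markers to 1.03 to 1.08, 1.47 to 3.96 and 0.297 to 0.376 FPKM in the HL, H and NC libraries. Of 8 macrophage markers, 1 reached 1 FPKM in every HL library, 2 in every H library and 1 in every NC library, and their summed level was 20.0 to 20.9 FPKM in HL, 105.8 to 169.5 FPKM in H and 5.51 to 6.73 FPKM in NC libraries. Without Csf1r, that sum was 19.8 to 20.6, 14.3 to 20.8 and 5.15 to 6.42 FPKM in the HL, H and NC libraries. Most of that sum was Cd68, with 18.3 to 19.5 FPKM in HL, 13.3 to 20.0 in H and 4.31 to 5.58 in NC libraries. Its log2 fold changes were 1.85 in H against NC and 1.98 in HL against NC (limma, adjusted p = 9.8e-06 and 2.26e-05). The leukocyte marker Ptprc was at or near 0, and the part of other cells or of differentiation in the results was not tested.

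The order of the 10 genes by FPKM, a level per length, differed between the groups. In HL cells Atf4 was the most abundant with 246.2 ± 4.64 FPKM (SD, n = 3), in H cells Nupr1 with 630.7 ± 192 FPKM, and in NC cells Atf4 with 244.2 ± 1.66 FPKM. In HL cells Phgdh, Asns, Psat1, Ddit3, Nupr1, Atf5, Pck2, Chac1 and Trib3 followed, and the neighbours from Psat1 to Nupr1, and Pck2 and Chac1, overlapped in their libraries. In H cells the order after Nupr1 was Atf4, Ddit3, Phgdh, Psat1, Asns, Chac1, Atf5, Pck2 and Trib3, with overlap among neighbours from Ddit3 to Asns, between Chac1 and Atf5 and between Pck2 and Trib3. In NC cells Atf4 was followed by Phgdh, Psat1, Asns, Pck2, Nupr1, Atf5, Ddit3, Chac1 and Trib3, and Pck2 overlapped with Nupr1. Nupr1 thus led the 10 genes in H cells and stood in the middle of the order in HL and NC cells.

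**Figure D2:**
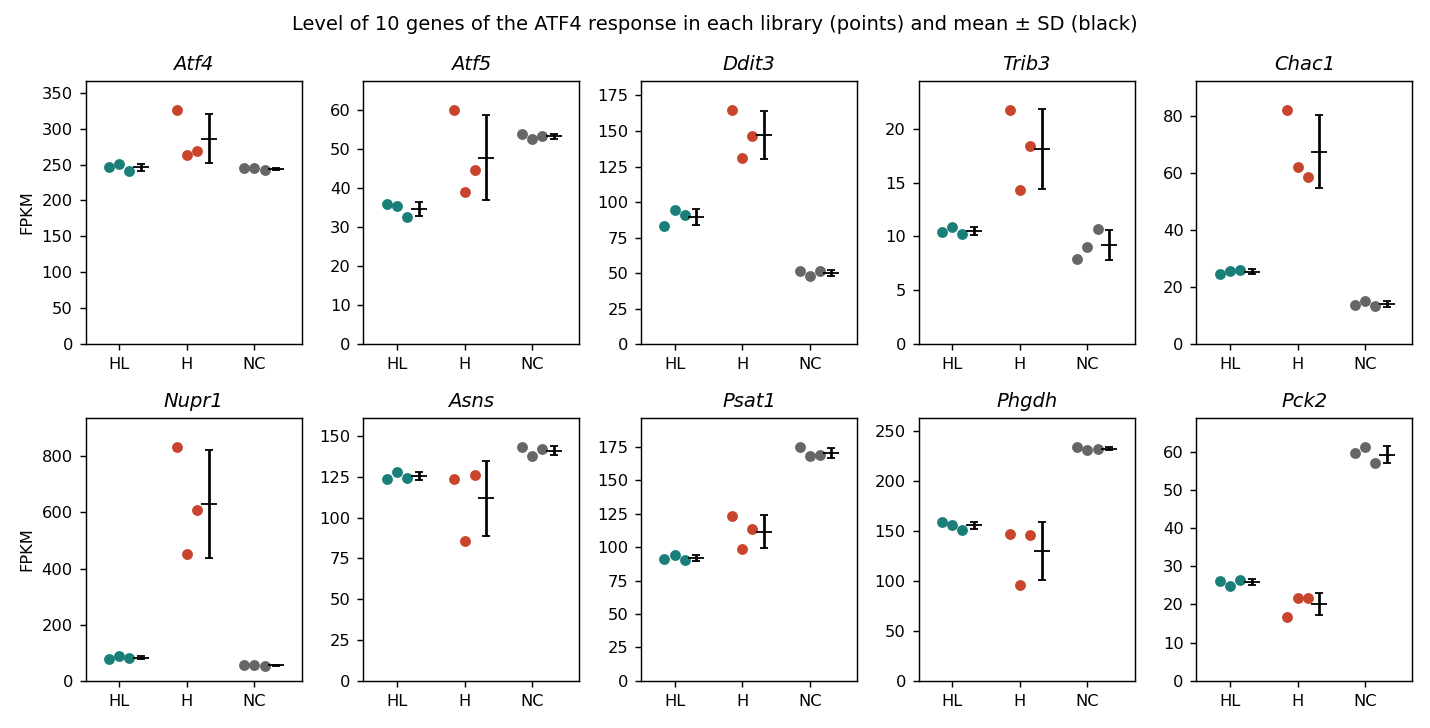
FPKM of each of the 10 genes in the 9 libraries, 1 panel per gene, with the HL group left, H in the middle and NC right. Points are libraries, in the order of their numbers, and the black marks are the group mean with its SD. Nupr1, Chac1 and Ddit3 are highest in all 3 H libraries, and Pck2, Psat1 and Phgdh are highest in all 3 NC libraries.

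Of the 3 transcription factor genes, only Ddit3 changed by more than 1 on the log2 scale. Atf4 (ENSMUSG00000042406.9), the transcription factor that gives the response its name, had 246.8, 250.5 and 241.3 FPKM in HL libraries, 325.5, 263.2 and 269.4 FPKM in H libraries and 245.1, 245.1 and 242.2 FPKM in NC libraries. All H libraries lay above all HL and NC libraries, with H1 standing highest, while the HL and NC libraries overlapped. Atf4 had a log2 fold change of 0.22 ± 0.07 (SE) in H against NC (limma, Benjamini-Hochberg adjusted p = 0.0273) and −0.21 ± 0.07 in HL against H (adjusted p = 0.0418), both well under the 1 on the log2 scale that a call needs. Both passed the adjusted p of 0.05 by a small margin. Without H1 they were 0.12 and −0.11 (adjusted p = 0.0158 and 0.0319), and on the TPM scale the first was 0.41 (adjusted p = 0.000533). Without any one of NC1, NC2 and NC3 the adjusted p of the H increase was 0.0632 to 0.072, and without any one of the HL or NC libraries that of the HL decrease was 0.0617 to 0.111. Between HL and NC the log2 fold change of Atf4 was 0.01 ± 0.07 (adjusted p = 0.914).

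Ddit3 (ENSMUSG00000025408.16) encodes CHOP, a C/EBP-family factor of the later stress programme. It had 83.2, 94.3 and 90.6 FPKM in HL libraries, 164.6, 131.2 and 146.2 FPKM in H libraries and 51.7, 47.7 and 51.5 FPKM in NC libraries. The 3 groups did not overlap, with H highest and HL in between. Ddit3 rose in H against NC by 1.54 ± 0.09 on the log2 scale, a 2.91-fold higher level (limma, adjusted p = 8.13e-07). For HL against H it was −0.72 ± 0.09 (adjusted p = 0.000166), and in HL against NC 0.83 ± 0.09 (adjusted p = 8.32e-05).

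Atf5 (ENSMUSG00000038539.16), a related factor that is also controlled at translation, had 35.8, 35.4 and 32.6 FPKM in HL libraries, 59.9, 38.9 and 44.6 FPKM in H libraries and 53.7, 52.5 and 53.4 FPKM in NC libraries. H1 lay above every NC library and the other H libraries below them, so H and NC overlapped, while every HL library was under every H and NC library. Atf5 had log2 fold changes of −0.18 ± 0.13 in H against NC (limma, adjusted p = 0.268), −0.44 ± 0.13 in HL against H (adjusted p = 0.0204) and −0.62 ± 0.13 in HL against NC (adjusted p = 0.00401). Without H1, the first of these was −0.35 with an adjusted p of 0.00263 and the second −0.27, and without H2 the first was −0.04. Without HL3, the decrease in HL against H was −0.40 with an adjusted p of 0.0673.

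The 3 stress effectors, Nupr1, Chac1 and Trib3, were highest in H cells. Nupr1 (ENSMUSG00000030717.10) encodes a small stress-induced chromatin-associated protein. It had 77.4, 88.1 and 82.0 FPKM in HL libraries, 833.0, 451.7 and 607.3 FPKM in H libraries and 55.9, 57.9 and 54.3 FPKM in NC libraries. It showed the largest fold change of the 10 genes in both comparisons that involve H, and its lowest H library was far above every HL and NC library. Nupr1 was higher in H than in NC by 3.45 ± 0.18 on the log2 scale, 10.9-fold (limma, adjusted p = 5.7e-07), and its log2 fold change in HL against H was −2.89 ± 0.18 (adjusted p = 5.12e-06). HL libraries remained above NC libraries, by 0.56 ± 0.18 on the log2 scale (adjusted p = 0.027), and without HL2, HL3 or any one of the NC libraries the adjusted p was 0.0544 to 0.0821. Over all settings it was 0.00015 to 0.0821. The SE comes from the shared fit, while the SD of Nupr1 was 0.09 in HL, 0.44 in H and 0.05 in NC libraries on the log2 scale.

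Chac1 (ENSMUSG00000027313.4), whose product breaks down glutathione, had 24.5, 25.8 and 25.9 FPKM in HL libraries, 81.9, 61.9 and 58.4 FPKM in H libraries and 13.6, 15.3 and 13.3 FPKM in NC libraries. No groups overlapped. It was 4.73-fold higher in H than in NC, a log2 fold change of 2.24 ± 0.12 (limma, adjusted p = 6.43e-07). The log2 fold change was −1.39 ± 0.12 in HL against H (adjusted p = 2.69e-05) and 0.85 ± 0.12 in HL against NC (adjusted p = 0.000399).

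Trib3 (ENSMUSG00000032715.10) encodes a pseudokinase that is known to bind ATF4 and AKT. It was the least abundant of the 10, with 10.4, 10.9 and 10.2 FPKM in HL libraries, 21.7, 14.3 and 18.4 FPKM in H libraries and 7.92, 9.02 and 10.7 FPKM in NC libraries. All H libraries exceeded the others, and HL and NC overlapped. The log2 fold change was 0.96 ± 0.15 in H against NC (limma, adjusted p = 0.000505), just under the limit of 1, which it passed without H2 at 1.12, without NC3 at 1.07 and at 1.15 on the TPM scale, in which every library sums to the same total. For HL against H it was −0.76 ± 0.15 (adjusted p = 0.00304) and in HL against NC 0.20 ± 0.15 (adjusted p = 0.317).

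The 4 biosynthetic enzymes were lower in H than in NC cells, and only Pck2 passed the limit of 1 on the log2 scale. Pck2 (ENSMUSG00000040618.8), the mitochondrial phosphoenolpyruvate carboxykinase, had 26.2, 24.9 and 26.3 FPKM in HL libraries, 16.7, 21.8 and 21.7 FPKM in H libraries and 59.5, 61.2 and 56.9 FPKM in NC libraries. The groups did not overlap, with NC highest. Pck2 had log2 fold changes of −1.57 ± 0.10 in H against NC (limma, adjusted p = 1.7e-06), 0.37 ± 0.10 in HL against H (adjusted p = 0.0128, 0.0725 on the TPM scale, and 0.24 without H1) and −1.20 ± 0.10 in HL against NC (adjusted p = 2.81e-05).

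Phgdh (ENSMUSG00000053398.12), the entry enzyme of serine synthesis, had 159.1, 156.6 and 151.6 FPKM in HL libraries, 147.6, 96.5 and 146.4 FPKM in H libraries and 234.3, 231.5 and 231.8 FPKM in NC libraries. H2 stood well below every other library, and HL and H both lay below NC. The pseudogene Phgdh-ps1 reached no more than 0.118 FPKM. For Phgdh the log2 fold change was −0.86 ± 0.14 in H against NC (limma, adjusted p = 0.000553, −0.66 without H2), 0.29 ± 0.14 in HL against H (adjusted p = 0.119, 0.08 without H2) and −0.58 ± 0.14 in HL against NC (adjusted p = 0.00775).

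Psat1 (ENSMUSG00000024640.10), the next enzyme of serine synthesis, had 91.3, 94.3 and 90.1 FPKM in HL libraries, 123.0, 98.7 and 113.6 FPKM in H libraries and 175.0, 168.3 and 168.8 FPKM in NC libraries. Unlike Pck2 and Phgdh it was lowest in HL, and the 3 groups did not overlap. The log2 fold change was −0.62 ± 0.07 in H against NC (limma, adjusted p = 8.61e-05), −0.28 ± 0.07 in HL against H (adjusted p = 0.0129) and −0.89 ± 0.07 in HL against NC (adjusted p = 2.81e-05).

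Asns (ENSMUSG00000029752.13), the asparagine synthetase, had 123.7, 128.2 and 124.1 FPKM in HL libraries, 123.6, 85.6 and 126.1 FPKM in H libraries and 143.3, 138.0 and 142.0 FPKM in NC libraries. H2 stood apart, and the other H libraries lay among or beside the HL libraries. The log2 fold change was −0.36 ± 0.13 in H against NC (limma, adjusted p = 0.0342), which was −0.18 without H2 (adjusted p = 0.00474) and −0.16 on the TPM scale (adjusted p = 0.291). Without any one of the NC libraries the adjusted p was 0.0643 to 0.0828. For HL against H it was 0.19 ± 0.13 (adjusted p = 0.25, 0.01 without H2 and 0.29 without H3) and in HL against NC −0.17 ± 0.13 (adjusted p = 0.294), although all HL libraries lay below all NC libraries, and without H2 in the fit the adjusted p of HL against NC was 0.00385.

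**Figure D3:**
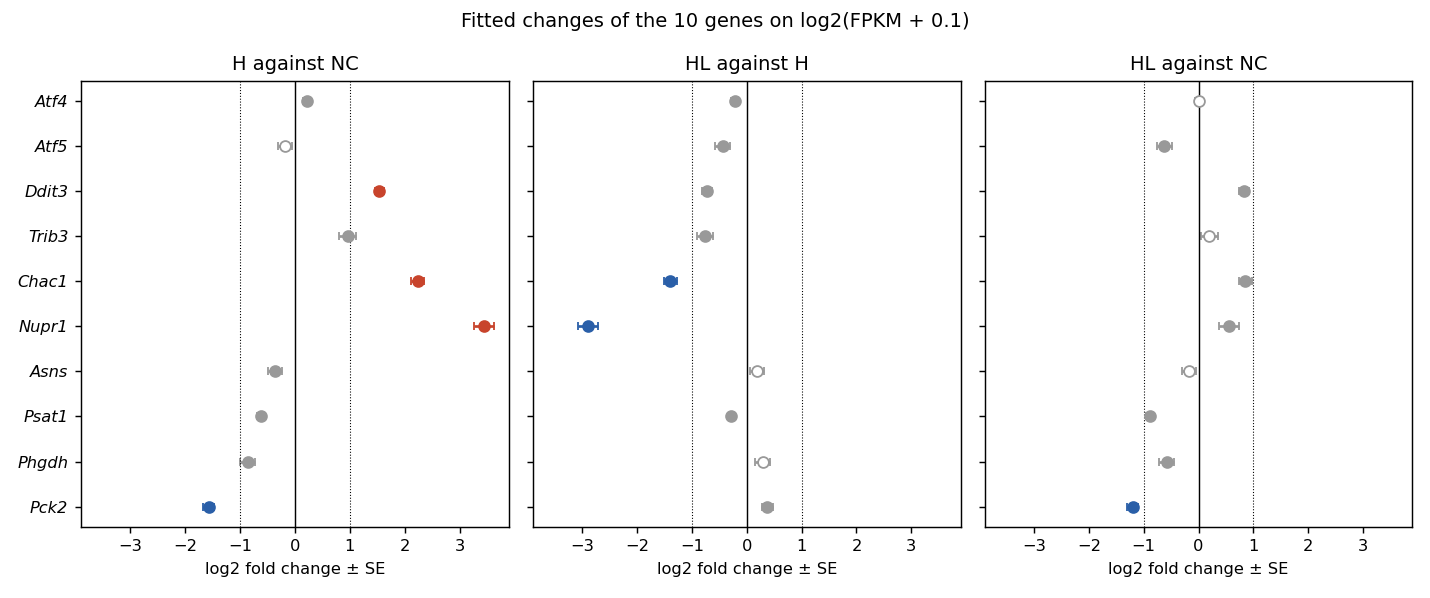
Log2 fold change of each of the 10 genes with its standard error in the 3 comparisons, with dotted lines at the limits for a call. Red points are called higher, blue called lower, filled grey pass the adjusted p alone and open points do not. Nupr1 and Chac1 are past the limit upward in H against NC and downward in HL against H, Ddit3 upward in H against NC, and Pck2 downward in H against NC and in HL against NC.

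Calls need an adjusted p under 0.05 and a log2 fold change beyond 1 in size. In H against NC, 3 of the 10 genes (Ddit3, Chac1, Nupr1) were called higher and 1 (Pck2) lower, against 10.3% and 5.75% of the 13674 genes tested, 16.0% together. By the adjusted p alone 5 were higher and 4 lower, where 27.1% and 33.0% of all genes were, so 9 of the 10 genes differed between H and NC in a comparison in which 60.1% of all genes did. The H libraries lay entirely above the NC libraries for 5 genes and entirely below for 4, against 29.7% and 35.7% of all genes, 65.5% together. The median log2 fold change of the 10 genes was 0.02, beside −0.04 over all genes tested, since the increases and decreases offset each other.

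In HL against H, none of the 10 was called higher and 2 (Chac1, Nupr1) were called lower, against 3.55% and 5.83% of all genes, 9.38% together. By the adjusted p alone 1 gene (Pck2) was higher and 7 were lower, against 26.7% and 21.7% of all genes (48.4% together), and Asns and Phgdh did not pass. The HL libraries lay entirely above the H libraries for 2 genes and entirely below for 7, against 30.4% and 24.9% of all genes, 55.3% together. The median of the 10 was −0.36, beside 0.04 over all genes. This comparison and H against NC use the same 3 H libraries, so opposite signs in the 2 comparisons are not separate observations.

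In HL against NC, only Pck2 was called, lower, against 2.41% of all genes called lower and 6.3% called higher, 8.72% together. By the adjusted p alone Ddit3, Chac1 and Nupr1 were higher and Pck2, Psat1, Phgdh and Atf5 lower, where 21.6% and 27.2% of all genes were (48.8% together), and Atf4, Trib3 and Asns did not pass. The HL libraries lay entirely above the NC libraries for 3 genes and entirely below for 5, against 29.5% and 36.3% of all genes, 65.8% together. The median of the 10 was −0.08, beside −0.04 over all genes.

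The 10 genes varied more between H libraries than between those of the other groups. Their median SD on the log2 scale was 0.04 in HL, 0.28 in H and 0.04 in NC cells, beside 0.09, 0.17 and 0.07 for all genes tested in the same groups. H2 gave the lowest of the 3 H values for 8 of the 10 genes, and H1 the highest for 8, where over all genes H2 was lowest for 41.1% and H1 highest for 39.3%. Nupr1 had the widest spread in H cells, an SD of 0.44, followed by Phgdh at 0.35 and Atf5 at 0.32. Pck2 was the exception in both respects, with its lowest value in H1 and its highest in H2.

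**Figure D4:**
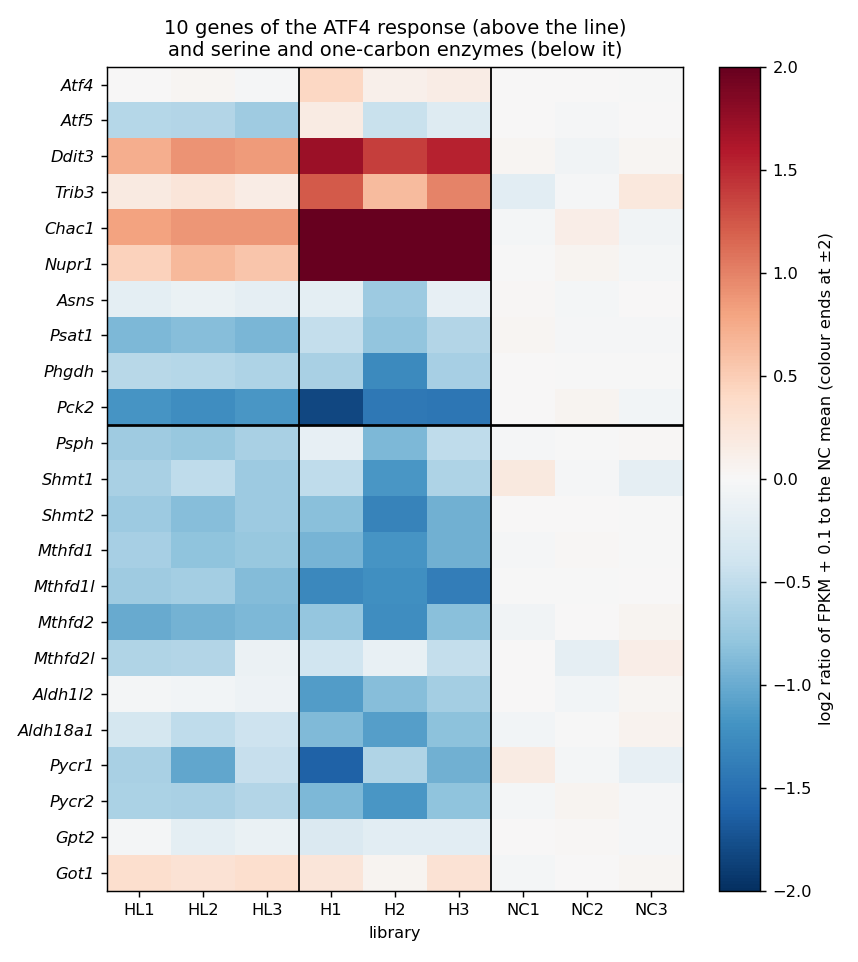
Level of the 10 genes (above the line) and of the 13 serine and one-carbon genes (below it) in each library, as the log2 ratio of FPKM + 0.1 to the NC mean, with HL libraries left, H in the middle and NC right and colours that end at ±2. Nupr1, Chac1, Ddit3 and Trib3 are high in the H libraries, while Pck2, Phgdh and Psat1 are low in both HL and H libraries.

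Other genes of the pathway were read from lists grouped by role. These lists were chosen with earlier results of these data known, so their counts and medians are descriptions only. The next list held 8 genes, for the eIF2α kinases, their substrate, its phosphatases and, with Eif2b5, its exchange factor. Of these, 1 was called higher in H against NC and 1 lower in HL against H, where 10.3% and 5.83% of all genes were. In both cases it was Ppp1r15a, which encodes the stress-induced phosphatase subunit GADD34. Ppp1r15a had 42.3, 40.4 and 40.2 FPKM in HL libraries, 122.1, 85.0 and 93.9 FPKM in H libraries and 26.0, 26.9 and 26.3 FPKM in NC libraries. Its log2 fold change was 1.90 ± 0.11 in H against NC (limma, adjusted p = 1.19e-06) and −1.27 ± 0.11 in HL against H (adjusted p = 3.23e-05). None of the 4 kinase genes was called in H against NC, HL against H or HL against NC, where 16.0%, 9.38% and 8.72% of all genes were. Eif2ak1, the heme-regulated kinase, averaged 12.6 FPKM in HL, 16.9 FPKM in H and 14.2 FPKM in NC cells, and Eif2ak2, the kinase PKR, averaged 18.3, 13.9 and 17.7 FPKM in the HL, H and NC groups. Eif2ak3, the kinase PERK of the endoplasmic reticulum, averaged 9.39, 9.92 and 7.47 FPKM in HL, H and NC cells, and Eif2ak4, the amino acid sensor GCN2, averaged 8.83, 10.5 and 12.5 FPKM. Their log2 fold changes in H against NC were 0.24 for Eif2ak1, −0.36 for Eif2ak2, 0.41 for Eif2ak3 and −0.27 for Eif2ak4 (limma, adjusted p = 0.0199, 0.0265, 0.00138 and 0.157). Without H1 those of Eif2ak2 and Eif2ak4 were −0.22 and −0.09. On the TPM scale Eif2ak1 was at 0.44, Eif2ak2 at −0.17 and Eif2ak4 at −0.08.

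Of 9 tested bZIP partners and regulators of ATF4, only Atf3, a stress-induced repressor, was called, higher in H against NC and in HL against NC, where 10.3% and 6.3% of all genes were. It had 64.7, 64.1 and 59.0 FPKM in HL libraries, 58.5, 41.5 and 44.7 FPKM in H libraries and 9.15, 9.06 and 9.49 FPKM in NC libraries. Both treated groups were well above NC, and HL was above H. The log2 fold change was 0.39 ± 0.11 in HL against H (limma, adjusted p = 0.0184), 2.36 ± 0.11 in H against NC (adjusted p = 3.98e-07) and 2.75 ± 0.11 in HL against NC (adjusted p = 1.49e-06). Of 7 tested genes of the TRIB family and other paralogs, 1 was called higher in H against NC and 1 in HL against NC, against the same shares of all genes, both times the pseudokinase gene Trib1, at 1.88 ± 0.10 (adjusted p = 7.48e-07) and 1.80 ± 0.10 (adjusted p = 4.66e-06).

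Of 17 tested stress effectors downstream of ATF4 and CHOP, 3 were called higher and 2 lower in H against NC, against 10.3% and 5.75% of all genes. The list median was 0.19. None was called in HL against H, where 9.38% of all genes were, with a median of −0.25. By the adjusted p alone 8 were higher and 4 lower in H against NC, against 27.1% and 33.0% of all genes. In HL against H, 2 were higher and 8 lower by the adjusted p alone, against 26.7% and 21.7% of all genes. Bbc3 and Bcl2l11, which encode the proapoptotic proteins PUMA and BIM, rose in H against NC by 1.96 ± 0.19 and 1.73 ± 0.08 on the log2 scale (limma, adjusted p = 2.5e-05 and 3.42e-07). Both were also called higher in HL against NC, at 1.59 ± 0.19 and 1.93 ± 0.08 (adjusted p = 0.0002 and 1.49e-06). Their log2 fold changes in HL against H were −0.37 ± 0.19 and 0.19 ± 0.08 (adjusted p = 0.14 and 0.074), and without H3 that of Bbc3 was −0.62 (adjusted p = 0.00585). The same list includes Cth, an enzyme of cysteine synthesis, which fell by 1.33 ± 0.13 in H against NC (adjusted p = 2.1e-05). Vldlr, a lipoprotein receptor, was the other gene called lower, with a log2 fold change of −1.12 in H against NC. That change was −0.64 with a pseudocount of 1, −0.93 without H3 and −0.98 without NC1. Vldlr reached at most 2.09 FPKM and passed the filter on low values through its NC libraries, the group where it was highest.

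The list of serine, glycine and one-carbon enzymes, which also holds proline synthesis and aminotransferase genes, had the lowest median of the lists in H against NC, −0.93. Of its 13 genes, 0 were called higher and 4 lower, against 10.3% and 5.75% of all genes, and 11 were lower by the adjusted p alone, against 33.0%. The called gene with the largest change was Mthfd1l, a mitochondrial folate enzyme, with 23.5, 24.0 and 21.1 FPKM in HL libraries, 15.8, 16.5 and 14.7 FPKM in H libraries and 38.5, 38.4 and 38.9 FPKM in NC libraries. Its log2 fold change was −1.30 ± 0.07 in H against NC (limma, adjusted p = 6.42e-07) and 0.55 ± 0.07 in HL against H (adjusted p = 0.000221). In HL against H none of the 13 was called, where 9.38% of all genes were, and the median was 0.28. In HL against NC none was called either, where 8.72% of all genes were. There 10 of the 13 were lower by the adjusted p alone, against 27.2% of all genes, with a median of −0.62. The other calls in H against NC lie at the limit. The mitochondrial serine hydroxymethyltransferase gene Shmt2 was at −1.04 and −0.90 without H2, the folate enzyme gene Mthfd1 at −1.03 and −0.95 without H2, and Pycr1, a proline synthesis gene, at −1.05, −0.76 without H1 and −0.96 without NC1. None of these calls held on the TPM scale, with −0.85 for Shmt2, −0.84 for Mthfd1 and −0.86 for Pycr1.

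Of 10 tested amino acid transporters, 2 were called higher and 1 lower in H against NC, against 10.3% and 5.75% of all genes. The subunits of 1 transporter for large neutral amino acids went opposite ways. Slc3a2, its heavy chain, had 106.1, 102.7 and 99.3 FPKM in HL libraries, 243.6, 175.7 and 191.0 FPKM in H libraries and 88.0, 86.0 and 85.2 FPKM in NC libraries. Slc7a5, its light chain, had 30.2, 30.1 and 32.7 FPKM in HL libraries, 20.5, 16.1 and 20.4 FPKM in H libraries and 48.3, 48.7 and 48.2 FPKM in NC libraries. Neither gene overlapped between H and NC, and their log2 fold changes were 1.22 ± 0.10 and −1.35 ± 0.09 (limma, adjusted p = 9.31e-06 and 2.52e-06). In HL against H they were −0.97 ± 0.10 and 0.71 ± 0.09 (adjusted p = 8.6e-05 and 0.000258), and Slc3a2 was past the limit at −1.07 without H2 and −1.01 without H3. The other gene called higher was Slc7a7, a cationic amino acid transporter light chain, at no more than 1.96 FPKM in any library. Its log2 fold changes of 1.29 in H against NC and 1.85 in HL against NC were 0.58 and 0.92 with a pseudocount of 1. Slc7a7 passed the filter on low values only through HL and H libraries, where it was higher, with 0.307 to 0.398 FPKM in NC libraries.

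Of 13 genes, 12 for cytosolic tRNA synthetases and Xpot for a tRNA exportin, 0 were called higher and 1 lower in H against NC, with a median of −0.38, and none in the other comparisons. Of all genes, 10.3% were called higher and 5.75% lower in H against NC, 9.38% were called in HL against H and 8.72% in HL against NC. The called gene was Lars1, for leucine, at −1.10 ± 0.06 (limma, adjusted p = 5.75e-07, −0.91 on the TPM scale). This list held the motif TGATGNAA in 5 of 9 genes with a promoter window, against 4.51% of all genes with a window. The motif was in 3 of 8 transporter genes, 2 of 7 bZIP genes, 2 of 11 serine and one-carbon genes, 2 of 15 stress effectors, 1 of 14 endoplasmic reticulum genes, 0 of 7 genes of the eIF2α list and 0 of 8 of the TRIB list.

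Of 17 chaperones and related genes of the other arms of the endoplasmic reticulum stress response, 9 were lower by the adjusted p alone in H against NC, 8 in HL against H and 12 in HL against NC, where 33.0%, 21.7% and 27.2% of all genes were. The medians were −0.21, −0.15 and −0.70. In these comparisons 1 gene was called higher in H against NC, 1 lower in HL against H and 2 lower in HL against NC, against 10.3%, 5.83% and 2.41% of all genes. Dnajb9, a cochaperone, rose in H against NC by 1.07 ± 0.08 (limma, adjusted p = 6.16e-06), a call that was lost without H1. Herpud1, which takes part in degradation at the endoplasmic reticulum, was lower in HL against H at −1.06 ± 0.07 (adjusted p = 9.89e-06, −0.98 without H2). Creld2 was lower in HL against NC at −1.12 ± 0.11 (adjusted p = 7.89e-05), as was Sdf2l1 at −1.03 (−0.98 without HL1), and both are luminal factors of that compartment.

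**Figure D5:**
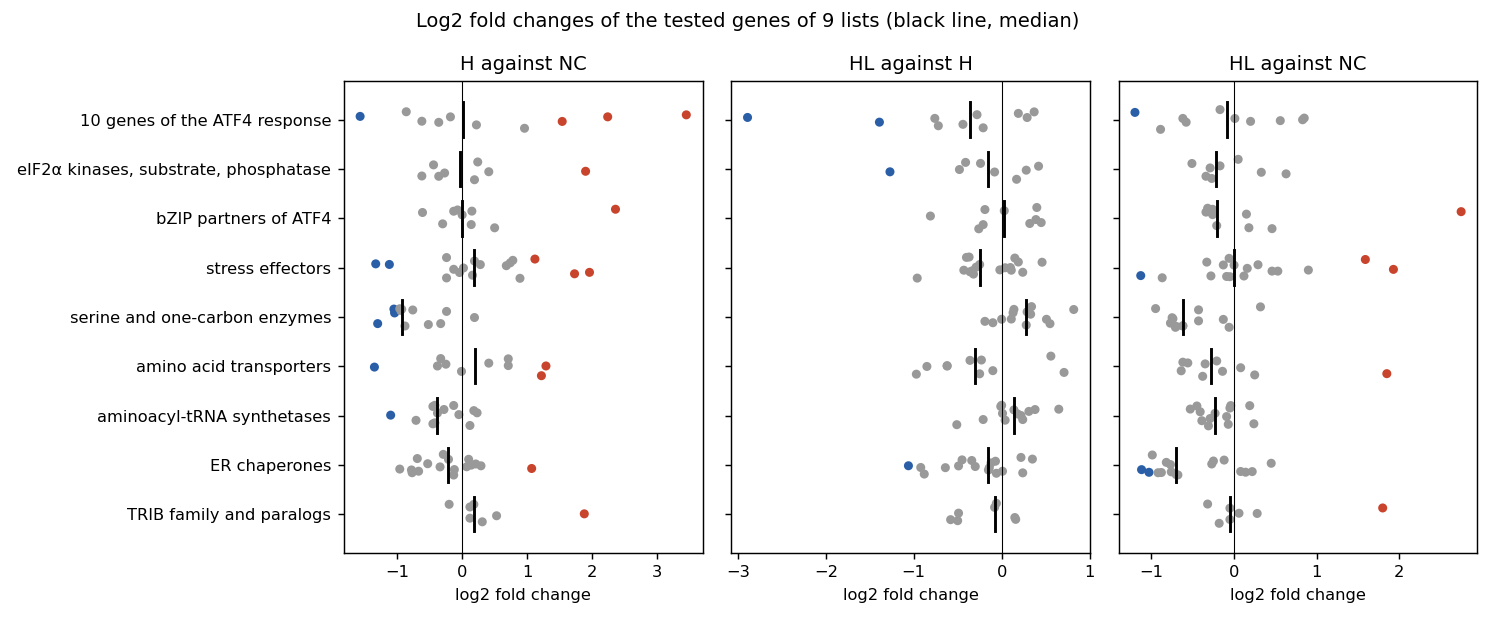
Log2 fold change of every tested gene of the 8 pathway lists and of the 10 genes in the 3 comparisons, with the median of each list as a black line and called genes in red (higher) or blue (lower). The serine and one-carbon list has medians of −0.93 in H against NC, 0.28 in HL against H and −0.62 in HL against NC.

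Across the 9 libraries, the tested genes most like 4 of the 10 were ranked by Pearson's r of log2 values, as a description, because all 9 libraries share the contrast between 3 groups. The 10 genes, the genes of the lists, the markers and genes without a symbol were left out of this ranking. They were kept in the counts of genes over 0.95. Nupr1 was followed most closely by Loxl4, Abl2, Rftn2, Hspa4l and Tmbim1, with r from 0.996 to 0.997, and 601 genes had an r over 0.95 with it. Pck2 was followed by Cdk2, Rpl13, Fam136a, Mpp6 and Rps14, with r from 0.994 to 0.996, and 546 genes had an r over 0.95. Fewer genes were like Atf4, with 21 over 0.95, led by Mien1 at 0.997, Acsl5, E4f1, Tbrg1 and Tacc2. For Asns 11 were over 0.95, led by Wrb at 0.982, Dcaf7, Txnl4a, Ubqln4 and Bak1.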

How the data were processed

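mRNA of 9 C2C12 libraries was sequenced on the Illumina HiSeq platform. Per the labels, reads were aligned with HISAT2 (version 2.1.0) and quantified with StringTie (version 1.3.3b). The deposited table is named for another quantifier, salmon, and which of them made its values was not settled. The sources also differ in the genome they name, mm39 in the labels, and the identifiers are those of mouse Ensembl. The FPKM values deposited by the authors are scaled to each library's fragments and to gene length and are not counts, so no count test was run. Depth was estimated from 6982 genes with 1 transcript. It is the depth, within a set range, that put the most low values within 0.1 of a whole number of fragments. At that depth 99.5% to 99.9% of them did, a share that is not a separate check because the choice maximised it. No 2 libraries held identical values.

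Values were tested as log2(FPKM + 0.1) with limma (version 3.58.1, statmod 1.5.0, R 4.3.3), with a trend and the robust option, in 1 fit of 9 libraries with 6 residual degrees of freedom. All comparisons share 1 estimate of the spread per gene, so the SE of HL against NC also holds the spread of the H libraries. Fold changes are on that scale and understate changes of low genes. The test covered the 13674 genes that reached an FPKM of 1 in 3 or more libraries, with Benjamini-Hochberg adjustment done separately for each comparison. Lists are given by counts and medians, with no set test. Besides the 10 genes, up to 4 genes per list are named, with the largest change among those called in any comparison. The 4 kinase genes are named, and for 4 of the 10 the 5 genes outside the lists most like it over the 9 libraries. The genes, lists and tests were chosen with earlier results of these data known. The model was tested on simulated data with the same spread in every group, so that test does not cover the wider spread of the H libraries. Alternatives were other pseudocounts and filters, TPM rescaling, median centring, no robust option, fits of 2 groups, a replicate block and leaving out each library. Deviations of same-numbered libraries from their group means had correlations of −0.04 to 0.09.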

Additional observations from a re-analysis of the deposited data

How the results depend on the processing

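Under every alternative other than dropping the fold limit, the calls among the 10 genes were kept, and only Trib3 was added, in H against NC without H2, without NC3 and on the TPM scale. With the adjusted p alone, 5 of the 10 genes were higher and 4 lower in H against NC, 1 and 7 in HL against H, and 3 and 4 in HL against NC, and over all genes 3711 and 4513, 3652 and 2967, and 2957 and 3717. With a mean FPKM of at least 5, only 9849 genes were tested, and 517 were called higher in H against NC. In HL against H 255 were higher and 270 lower, and in HL against NC 306 and 150. Without a filter, 32012 genes were tested. Of these, 2711 were called higher in H against NC, 1606 lower in HL against H and 622 lower in HL against NC. A pseudocount of 1 left 256 higher in HL against H, and 446 higher and 198 lower in HL against NC. These compare with the main fit over 13674 genes, which gave 1402 higher and 786 lower in H against NC. In HL against H it gave 486 and 797, and in HL against NC 862 and 330. Counts from fits of unlike size are not shares of the same total.

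Leaving out 1 library at a time gave 1013 to 1409 genes called higher and 706 to 873 lower in H against NC, 391 to 563 and 444 to 801 in HL against H, and 765 to 854 and 268 to 332 in HL against NC. Of the 10 genes, 3 to 4 were then higher in H against NC and 1 lower, 0 higher and 2 lower in HL against H, and 0 higher and 1 lower in HL against NC. The lower calls in HL against H were 444 without H1 and 520 without H3. The FPKM of a library summed to 698627 to 731929 in HL, 649733 to 683362 in H and 757000 to 765681 in NC. TPM rescaling moved the median of all genes in H against NC to 0.15, beside −0.04, and gave 76.8% of the calls as higher, beside 64.1%, with 48.5% for a mean FPKM of at least 5. In HL against H the share was 37.9%, beside 48.6% for a mean FPKM of at least 5, 26.9% without a filter and 28.8% on the TPM scale, and 46.8% without H1, 46.4% without H2 and 52.0% without H3, where calls higher outnumbered calls lower. Atf5 in H against NC, not called, was 0.02 on the TPM scale. With a replicate block, 1402 genes were higher and 794 lower in H against NC, 486 and 802 in HL against H, and 848 and 332 in HL against NC, and the calls of the 10 genes did not change. Deviations of libraries with the same number correlated at −0.04 to 0.09 over all tested genes, so no broad pairing by number was seen. A weak link, or one limited to few genes, would not show in these values. The causes were not tested. With 3 libraries a group, small changes such as that of Atf4 on the FPKM scale lie near the limit of detection. On the TPM scale Atf4 in H against NC was 0.41 (limma, adjusted p = 0.000533).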
